A study of Rattus norvegicus with 4 samples.

Results

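Axon guidance ligands and receptors were examined for trimethylation of histone H3 at lysine 27 (H3K27me3) in the sham-operated rat sciatic nerve. H3K27me3 is a mark of Polycomb-repressed chromatin. Members were taken by gene name alone: semaphorins (Sema), plexins of types A to D (Plxn), neuropilins (Nrp1, Nrp2), Eph receptors (Epha, Ephb), ephrins (Efna, Efnb), Slit and Robo genes, netrins (Ntn) and Unc5 receptors. This gave 52 genes of the 10647 that the authors' peak annotation names, with 934 of its 129550 peaks. They divide into 30 ligands, 21 receptors and Unc5cl, a gene that shares the Unc5 prefix and was put in neither role.

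The tissue was the nerve of adult male Sprague Dawley rats at postnatal day 42, from the limb that had a skin incision only, taken 1 day after the nerve of the opposite limb was transected. Chromatin cut with micrococcal nuclease gave 2 H3K27me3 libraries, and 2 libraries were made from input chromatin. The authors' peaks stand in a combined list on the rn5 assembly, with a single score per peak, so no value has a replicate error and no test across samples could be made. No sequencing depth per library is given. The labels give no genotype beyond the strain, and whether a library pooled several animals is not stated in the labels. Whole nerve holds Schwann cells and axons together with cells of its sheaths, vessels and immune system, so a peak does not tell in which of them, or in what share of them, the mark lay.

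Guidance genes steer growing axons and migrating cells by contact or by secreted cues. Class 3 semaphorins are secreted and act through neuropilins and A-type plexins, while most other semaphorins are anchored in the membrane and bind plexins directly. Ephrins are membrane-bound ligands of Eph receptor tyrosine kinases, Slit proteins bind Robo receptors, and netrins attract axons through Dcc or repel them through Unc5 receptors. In the peripheral nerve, ephrin-B and EphB2 signalling sorts Schwann cells after a cut, and Slit3 and Robo1 help keep migrating Schwann cells on course in the nerve bridge. Polycomb complexes place H3K27me3 on many developmental genes in cells that do not use them.

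Most of the guidance genes had an H3K27me3 peak at a promoter. A promoter peak was defined as a peak whose edge lay within 1000 bp of the transcription start site (TSS) to which the authors assigned it, or that contained it. Of the 52 genes, 36 had at least 1 (69.2%, 95% Wilson interval 55.7 to 80.1%), against 38.4% of all genes that the list names (4088 of 10647). In the top 25% of peak scores (9.9 or more) a promoter peak was present at 33 of the 52, or 63.5%, against 28.1% of all named genes. For promoter peaks of at least 2000 bp the count was 20 (38.5%), against 15.2% of named genes. A peak that contained the TSS itself was found at 15 guidance genes (28.8%), against 13.8%. The intervals treat genes as independent and cover the number of genes only.

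The median of the highest promoter peak score was 78.7 for the 36 guidance genes and 40.6 over the 4088 marked genes of the list. Their widest promoter peaks had a median of 2208 bp against 1341 bp. The score is the authors' own value. Scores under 10 lay within 0.006 of whole multiples of 0.20627, and the 95% counting intervals beside scores assume that such a step is 1 tag. They leave out any variation between animals or libraries.

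**Figure D1:**
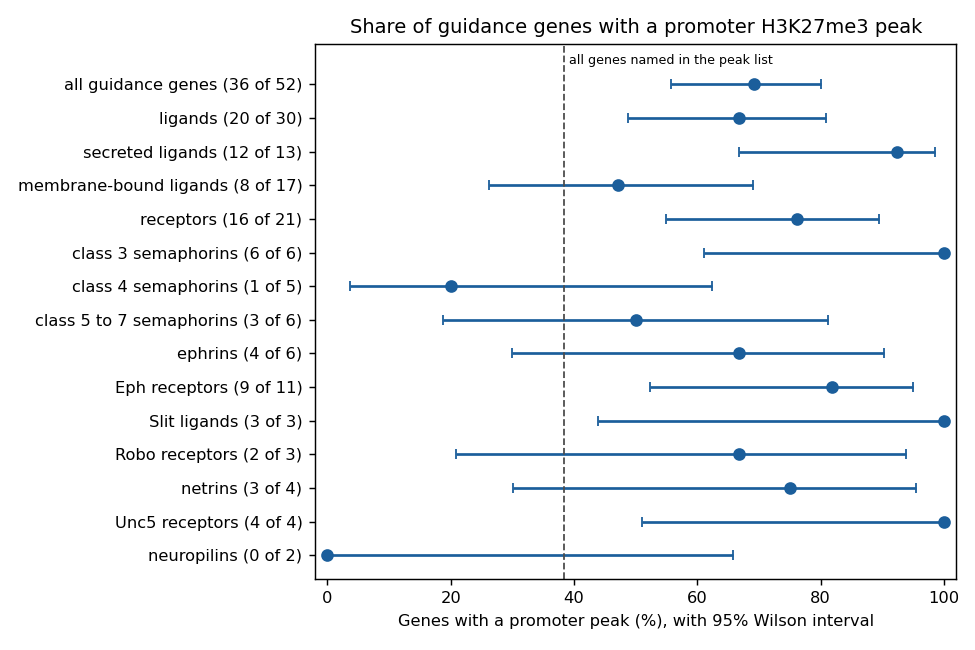
Share of genes with a promoter peak (x axis, percent) in each role group and family (y axis, with the counts). Points are shares, bars are 95% Wilson intervals, and the dashed line is the 38.4% of all named genes. Secreted ligands (12 of 13) and class 3 semaphorins (6 of 6) lie to the right, class 4 semaphorins (1 of 5) and neuropilins (0 of 2) to the left of the line.

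Most of the secreted ligand genes had a peak at or near the TSS. Of 13 secreted ligand genes, 12 had a promoter peak (92.3%, Wilson interval 66.7 to 98.6%), and of 17 membrane-bound ligand genes 8 did (47.1%, 26.2 to 69%). A peak that contained the TSS was found at 4 of the 13 secreted and 4 of the 17 membrane-bound ligand genes. The contrast between these groups was not tested, since genes are not replicates.

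All 6 class 3 semaphorins that the list names had a promoter peak. Sema3a, the prototype collapsing factor for growth cones, had the highest score, 224.6 (counting interval 211 to 238), in a peak of 5779 bp that contained the TSS (chr4:18351077-18356856, rn5, centred in intron 1 of 16). Sema3f, which acts through neuropilin-2, had 79.8 over 2129 bp (chr8:115821559-115823688, intron 1 of 18). Sema3e, a ligand of plexin D1, had 58.4 over 2345 bp (chr4:17560487-17562832, intron 1 of 16). Sema3d (36.5), Sema3c (29.1) and Sema3g (8.04) lay below the median of all genes with a promoter peak. The 6 scores thus ran over a wide range, and the peak of Sema3g was only 349 bp wide.

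The 3 Slit genes and 3 of the 4 netrin genes were marked. Slit2 had a peak of 5255 bp and a score of 185.6 (174 to 198) that contained the TSS (chr14:67197178-67202433, intron 1 of 36). Slit1 had 92.4 over 1975 bp (chr1:268443238-268445213, intron 1 of 36), with a second promoter peak of 52.8 just upstream. Slit3, the Slit gene tied to the nerve bridge, had the lowest score of the family, 36.3 over 1181 bp, in a peak that ended 188 bp upstream of the TSS (chr10:19800230-19801411). Ntn4, a laminin-like netrin of basement membranes, had 128.9 (chr7:34599336-34602015, 2679 bp, intron 1 of 8). The promoter peak of Ntn1, the classical netrin, had 116.3 (chr10:54707688-54711435, 3747 bp, intron 1 of 5). Ntn3 had 78 over 2848 bp (chr10:13396733-13399581). At Ntn5 the closest peak edge was 4277 bp from the TSS, with a score of 2.89.

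The membrane-bound semaphorins were divided. Of the 5 class 4 genes, Sema4c alone had a promoter peak, of the list's smallest width of 150 bp and with a score of 3.92 (2.36 to 6.12, chr9:42793662-42793812, centred 39 bp from the TSS). Sema4f, a semaphorin of Schwann cells that keeps them in contact with axons, missed the limit narrowly: its nearest peak had a score of 3.71 and an edge 1014 bp from the TSS. Sema4g had a larger peak, 1347 bp with a score of 34.7, whose edge lay 1364 bp away. The closest edges were at 2821 bp for Sema4a (score 12.6) and at 12292 bp for Sema4b (score 4.74). The counts of both classes depend on the definition of a promoter peak. With a reach of 5000 bp, 4 of the 5 class 4 genes and 6 of the 6 class 3 genes had a promoter peak. Where the peak had to contain the TSS, 1 gene of each class did, Sema4c and Sema3a. In the authors' promoter-TSS class the counts were 3 for class 3 and 1 for class 4, and in the top 25% of scores 5 and 0.

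Among the class 5 to 7 semaphorins 3 of 6 were marked. Sema5b, a repellent with thrombospondin repeats, had the widest promoter peak of all guidance genes, 12751 bp, and a score of 585.8 (564 to 608, chr11:71515585-71528336, intron 1 of 20, centred in a CpG island by the authors' detailed annotation). Its close relative Sema5a had no promoter peak and only 2 peaks in all, the higher of them scored 4.33 with its edge 1757 bp from the TSS. Sema7a, which is tethered by a lipid anchor, had 58.2 over 2043 bp (chr8:62499884-62501927, intron 1 of 13), its single peak. Sema6d had 13.4 over 480 bp (chr3:123425354-123425834, intron 1 of 15). Sema6b and Sema6c had none, with closest edges at 3279 bp (score 2.68) and 1299 bp (score 2.89). A peak scored 161.1 over 3260 bp was however centred 9001 bp upstream of Sema6b.

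Of the 6 ephrin genes 4 had a promoter peak. Efna5, which maps axons in the visual system, had 146.7 over 3174 bp (136 to 158, chr9:109894222-109897396, intron 1 of 4). A larger one, 6537 bp wide and scored 304, was centred 6575 bp upstream of it. Efnb3, a midline barrier cue, had 84.2 over 2338 bp (chr10:55911625-55913963, in the promoter-TSS class), and Efnb2, a ligand of EphB receptors also known from arteries, had 55.1 over 1433 bp (chr16:86044475-86045908, intron 1 of 4). Efna2 had 20 over 699 bp (chr7:12564069-12564768). Efna4 had no promoter peak, and its closest edge was at 4464 bp (score 3.51). Efnb1, on the X chromosome, had 4 peaks, none of them above 8.04. The closest, scored 3.09, had its edge at 9958 bp.

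Receptors were marked at 16 of 21 genes (76.2%, Wilson interval 54.9 to 89.4%), ligands at 20 of 30 (66.7%, 48.8 to 80.8%). These intervals overlap broadly. RefSeq (GRCr8) holds 33 protein-coding receptor genes and 35 ligand genes of the rule, so more receptors than ligands are missing from these counts. Over the RefSeq genes the share with a promoter peak is lower for receptors than for ligands. The median promoter peak score was 83.1 for receptors and 68.2 for ligands.

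The Robo family held the largest contrast. Robo3, which tunes the response of midline-crossing axons to Slit, had the highest promoter score of all guidance genes, 664.2 (641 to 688), in a peak of 12644 bp over the TSS (chr8:39904395-39917039), centred 2353 bp upstream between genes. It ranked 152 among the 4088 genes with a promoter peak, above 96.3% of them. Robo2 had 123.6 (114 to 134) over 3049 bp (chr11:15250628-15253677, intron 1 of 29). Robo1 had no promoter peak although 82 peaks name it. Its closest peak was centred 65060 bp from the TSS with a score of 3.09, and its highest, 106.4 over 2853 bp, lay 129637 bp upstream. The list uses a single TSS for Robo1, whereas RefSeq (GRCr8) gives promoters at 2 places for this gene, so the other start was not assessed.

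The Eph receptors had a promoter peak at 9 of 11 genes. In class A, with 6 of 7, Epha10, a receptor without kinase activity, led with 228.5 (215 to 242) over 6671 bp centred 82 bp from the TSS (chr5:146643050-146649721). Epha4, a receptor for ephrins of both classes, followed with 140.7 over 4119 bp upstream of the TSS (130 to 152, chr9:83022821-83026940), with a downstream counterpart of 83.1. Epha7 had 136.6 over 3880 bp (chr5:48230964-48234844, intron 1 of 16) and an almost equal peak of 135.3 that contained the TSS. Epha5 had 106.2 and Epha3 54.7. Epha2, best known from epithelia, had a 189 bp peak scored 3.92, and Epha1 had no promoter peak, its closest edge being at 4777 bp (score 3.71). In class B, Ephb1 had 86.8 over 2287 bp (chr8:110215596-110217883, intron 1 of 15), Ephb3 28.5 over 869 bp (chr11:86619582-86620451, intron 1 of 16) and Ephb6 10.1 over 472 bp (chr4:135689219-135689691). Ephb2, the receptor that Schwann cells use in sorting, had no promoter peak. Its 11 peaks had scores of at most 4.95, and the nearest edge lay 1291 bp from the TSS.

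All 4 Unc5 receptor genes were marked. Unc5d led with 119.2 over 3092 bp (chr16:66681121-66684213, intron 1 of 17), followed by Unc5b with 54.9 over 1241 bp (chr20:32213432-32214673, intron 1 of 16). Unc5c had 43.1 over 1563 bp (chr2:265570858-265572421) and Unc5a 37.7 over 1384 bp. In none of the 4 did a promoter peak contain the TSS. Unc5cl had no promoter peak, and its closest edge lay at 10812 bp (score 22.9).

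Of the receptors of class 3 semaphorins, the list names the neuropilins and a single plexin. Neither neuropilin had a promoter peak. Nrp1 had 14 peaks with scores of at most 4.13, the nearest edge at 2883 bp, and Nrp2 had 3, of which the nearest was 463 bp wide with a score of 12.4 and an edge at 1090 bp. Plxna2, the only plexin that the list names, had 79.4 over 3197 bp (chr13:117923367-117926564, intron 1 of 31). The other 8 protein-coding plexin genes of RefSeq (GRCr8) are named by no peak. They cannot be told from genes that the authors' annotation lacks.

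**Figure D2:**
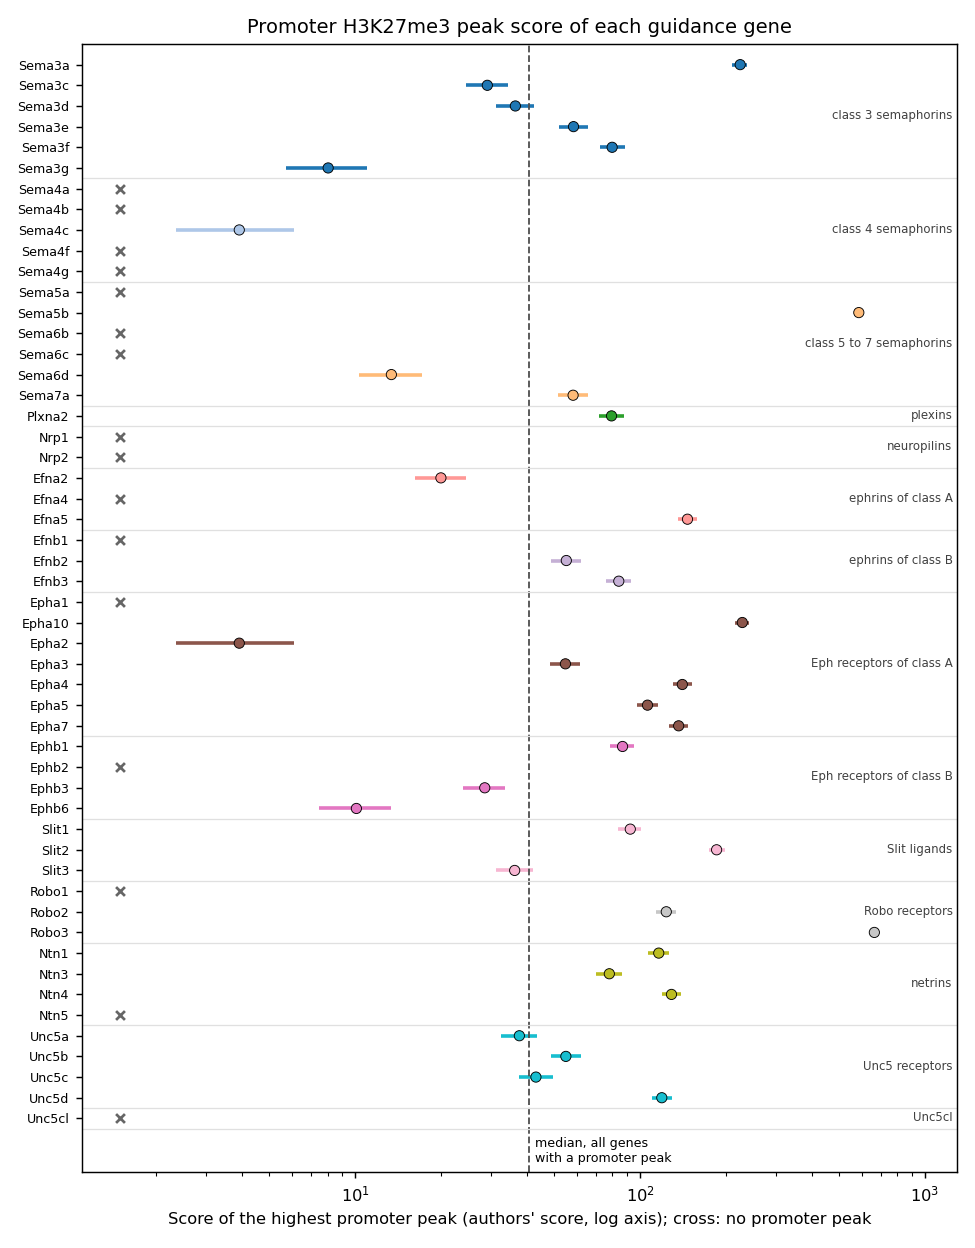
Score of the highest promoter peak (x axis, log scale) for each of the 52 guidance genes (y axis, by family). Bars are 95% counting intervals, crosses mark genes without a promoter peak and carry no score, and the dashed line is the median of 40.6 over all genes with a promoter peak. Robo3 and Sema5b stand at the right, and 25 of the 36 points lie above the line.

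Promoter sequence differed widely between members. The 250 bases before the start from RefSeq (GRCr8) are shown for Robo3, which had the highest score (chr8:45340223-45340472, minus strand), Sema5b, which had the widest peak (chr11:78730590-78730839, minus strand), Sema3c, a marked gene whose window holds no CG (chr4:18699628-18699877, minus strand), and Sema6c, an unmarked gene without CG (chr2:185426236-185426485, plus strand). Capitals mark CG dinucleotides, which cluster in the CpG islands where Polycomb complexes often bind. Sema5b and Sema3c were picked after their values were seen.
Robo3: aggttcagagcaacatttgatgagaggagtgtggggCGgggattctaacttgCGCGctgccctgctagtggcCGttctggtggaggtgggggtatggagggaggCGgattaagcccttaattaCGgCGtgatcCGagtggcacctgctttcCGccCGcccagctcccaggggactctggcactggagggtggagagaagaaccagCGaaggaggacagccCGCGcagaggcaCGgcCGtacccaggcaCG
Sema5b: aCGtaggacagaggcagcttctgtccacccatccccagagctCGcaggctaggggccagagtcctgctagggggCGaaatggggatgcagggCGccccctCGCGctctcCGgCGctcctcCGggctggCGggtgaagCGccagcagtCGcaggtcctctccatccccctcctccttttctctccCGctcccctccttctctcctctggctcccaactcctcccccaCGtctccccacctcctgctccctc
Sema3c: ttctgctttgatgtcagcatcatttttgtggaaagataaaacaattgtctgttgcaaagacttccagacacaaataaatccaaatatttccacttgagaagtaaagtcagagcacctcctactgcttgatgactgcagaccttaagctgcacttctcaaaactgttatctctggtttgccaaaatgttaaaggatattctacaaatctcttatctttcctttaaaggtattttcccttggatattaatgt
Sema6c: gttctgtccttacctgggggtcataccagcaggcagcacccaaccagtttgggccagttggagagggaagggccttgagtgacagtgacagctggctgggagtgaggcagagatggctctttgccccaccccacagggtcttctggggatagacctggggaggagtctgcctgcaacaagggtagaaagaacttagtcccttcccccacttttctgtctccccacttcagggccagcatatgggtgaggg

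The Robo3 window holds 16 CG dinucleotides, an observed over expected ratio of 0.679, and that of Sema5b holds 14, a ratio of 0.526, against a median ratio of 0.383 over the 33469 promoters of the table. The windows of Sema3c and Sema6c hold 0 CG. Sema3c had a promoter peak and Sema6c had none, but the nearest peak edge lay 546 bp from the TSS of Sema3c and 1299 bp from that of Sema6c. If the starts are the same, no peak of either gene reached its printed window. The pair therefore does not show whether sequence without CG carried the mark. GGGCGG on either strand was found in the Robo3 window alone, and in 30.5% of all promoters. TATAAA (12.9% of all promoters) and CCAAT (34%) were found in none of the 4. Only 41 of the 52 genes (78.8%) have a promoter in the table, under the 80% set as the minimum, so marked and unmarked members were not compared. The starts of the table need not be those of the rn5 annotation.

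The mark at guidance promoters lay mostly on the gene side of the TSS. For the highest promoter peak of each gene, 27 of 36 centres (75%) were downstream of the TSS, against 56.6% for all genes with a promoter peak. In 24 (66.7%) the centre was in intron 1, against 38.4%. In 19 (52.8%) the whole peak lay downstream, against 37.8%, and in 6 (16.7%) upstream, against 30.4%. With only peaks of at least 1000 bp, 15 of 29 guidance genes (51.7%) had the peak wholly downstream, against 30.4% of 2335 genes.

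At 12 of the 36 genes (33.3%, against 28.6% of all genes with a promoter peak) promoter peaks lay on both sides of the TSS with none over it. These were Efna2, Epha3, Ntn1, Plxna2, Sema3c, Sema3d, Sema3e, Sema3f, Sema6d, Unc5b, Unc5c and Unc5d. Epha3 had sides of similar score, with a peak of 42.5 on the upstream side and one of 54.7 that began 100 bp downstream. In the others the weaker side was lower. It scored 3.3 at Efna2 and Ntn1, 3.51 at Sema3c, 3.71 at Sema3f, 6.19 at Unc5d and 8.04 at Unc5b. At Plxna2, Sema3d, Sema3e, Sema6d and Unc5c it scored from 10.7 to 18.2. A further 15 genes had the TSS inside a peak, and the other 9 had promoter peaks on a single side.

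**Figure D3:**
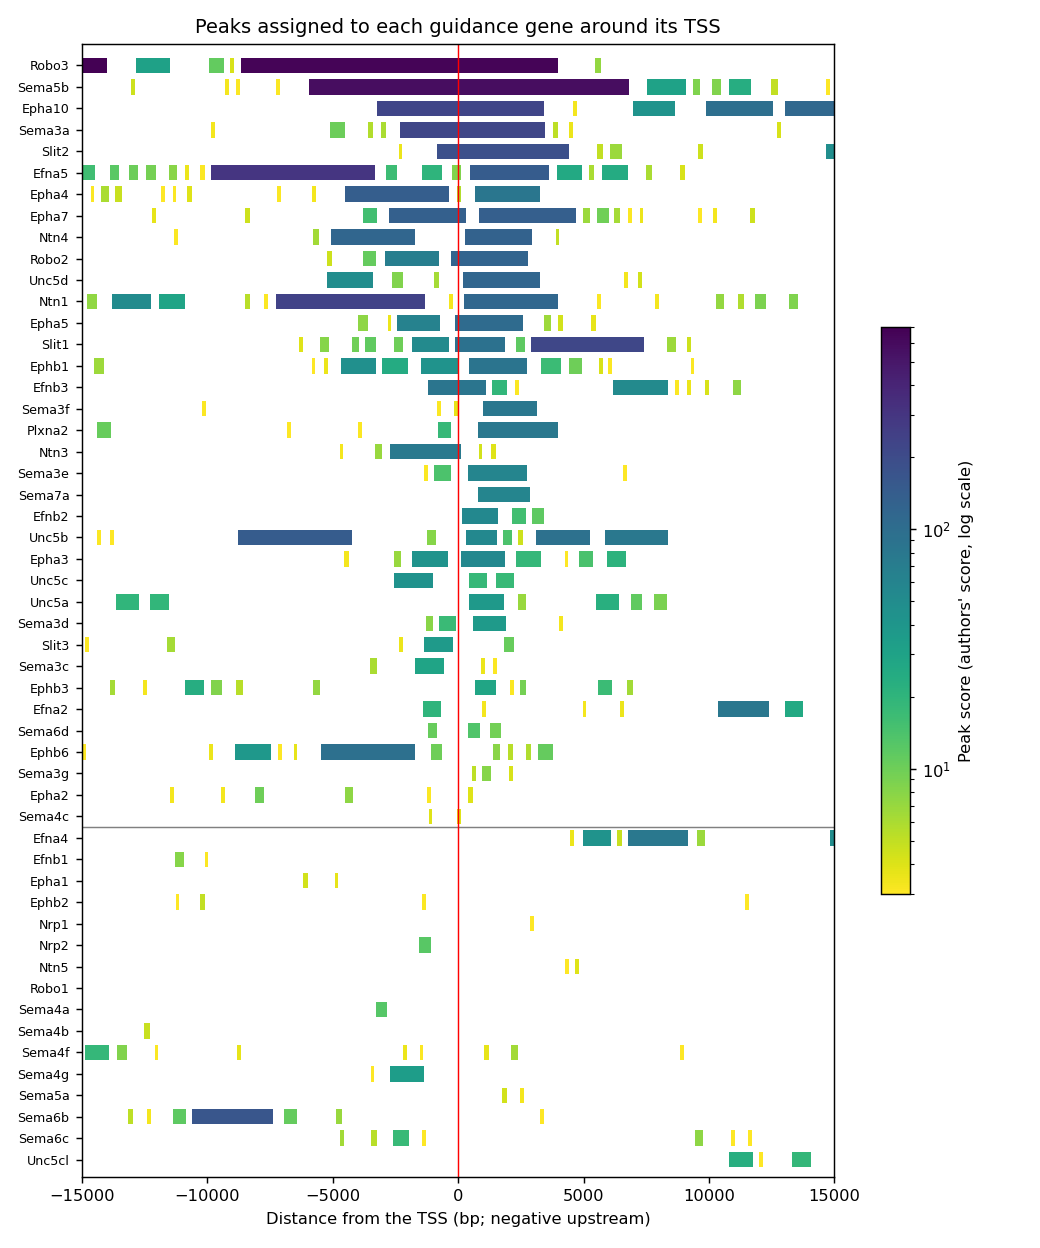
Peaks assigned to each guidance gene (rows) by distance from the TSS (x axis, bp, upstream negative; red line at the TSS), with colour for the peak score on a log scale. Rows above the grey line are the 36 genes with a promoter peak in order of its score, and rows below it are the 16 without. The 6671 bp peak of Epha10 lies over the TSS, whereas the 4119 bp peak of Epha4 lies upstream of it.

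The highest peak of a guidance gene was not always at its promoter. In 23 of the 36 marked genes it was a promoter peak, and in 13 it was not. The same count was not made over all genes with a promoter peak, so these counts have no background beside them. The highest score of any guidance gene peak, 732.7, belonged to a peak of 10044 bp centred 19007 bp upstream of Robo3 (chr8:39922349-39932393). The gene next to Robo3 on that side in GRCr8 is Msantd2, and which gene this domain covers in rn5 was not examined. At Ntn1 the highest peak (240.9 over 5938 bp) was centred 4304 bp upstream, and at Slit1 (218 over 4508 bp) 5170 bp downstream. The highest peak of Unc5b (160.9) lay 30355 bp downstream, that of Efnb3 (145.2) 35223 bp downstream and that of Sema6d (144.6) 519370 bp upstream of the TSS.

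Peaks at most 5000 bp apart were also joined into regions. The spans of such regions include the gaps without a peak and small peaks, so they are not widths of marked chromatin. They were not compared with those of other genes. The joined region of Efna5 spanned 41061 bp, that of Robo3 35238 bp, that of Sema5b 34164 bp, that of Ntn1 28336 bp and that of Epha10 28113 bp. The promoter region of Sema4f then reached its TSS as well, with a width of 4587 bp and a summed score of 16.7.

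Many peaks were assigned to guidance genes. The assignment was to the nearest TSS, and some peaks lay far away, such as one of Efna5 centred 593885 bp from it. Gene length and distance were not taken into account. Guidance genes had a median of 12 peaks per gene, against 7 over all named genes, with a range from 1 (Sema4a and Sema7a) to 83. The most were assigned to Efna5 (83), Robo1 (82), Slit1 (64), Ephb3 (63) and Sema5b (36). Of the 934 peaks, 40.9% were centred in introns and 56.6% between genes, against 21.8% and 74.7% of all peaks. The median width of their peaks was 191 bp and the median score 4.54, the same as over the whole list. Promoter peaks were 60 of the 934 (6.42%, against 4.81% of all peaks) and held 29.6% of the summed score of the guidance genes, against 26.1% for the whole list.

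Among genes with a promoter peak, the guidance genes were not at the top of the range. Only Robo3 and Sema5b ranked among the highest 10% by score. However, 25 of the 36 guidance genes lay above the median of all genes with a promoter peak. A score over 100 was found at 13 of them, and the lowest of these, Epha5 with 106.2, stood above 71.6% of the 4088 genes. Epha10 stood above 87% of the 4088 genes, Sema3a above 86.6% and Slit2 above 83.2%. At the lower end, Sema4c and Epha2 stood above 10.6%.

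**Figure D4:**
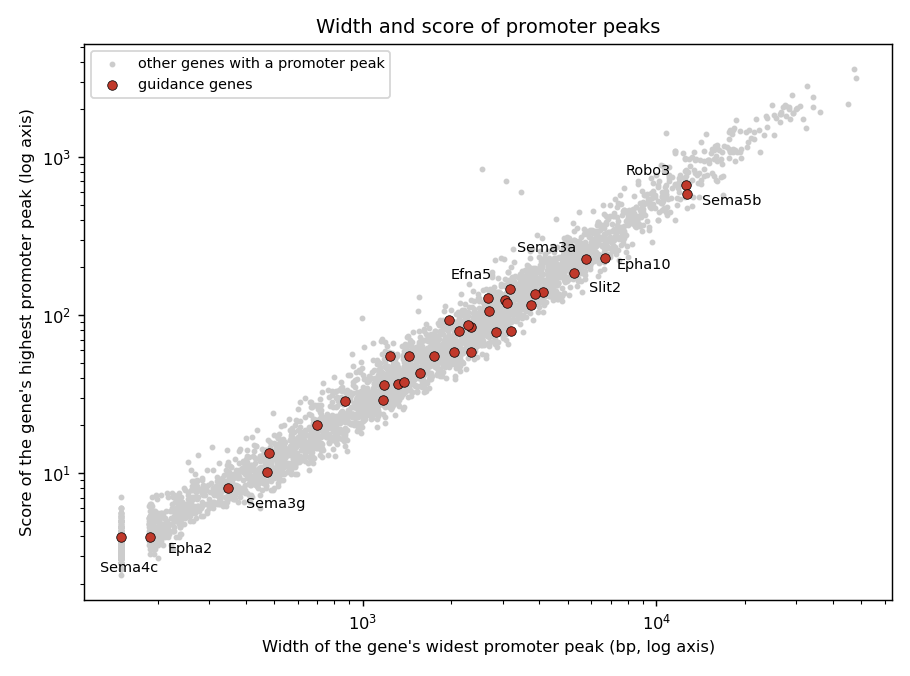
Width of the widest promoter peak (x axis, bp, log scale) against the score of the highest promoter peak (y axis, log scale) for the guidance genes (red) and all other genes with a promoter peak (grey). Guidance genes run from Sema4c at 150 bp and 3.92 to Sema5b at 12751 bp and Robo3 at 664.2, within the cloud of the other genes.

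Some guidance genes are named by no peak. Of all 23154 protein-coding genes of RefSeq (GRCr8), the list names 10287 (44.4%). RefSeq holds 69 protein-coding genes that the name rule takes, of which 17 are not among the 52. They are Efna1, Efna3, Epha6, Epha8, Ephb4, Robo4, Sema3b, Sema4d, Sema6a and 8 of the 9 plexins. Robo4, an endothelial relative, is in the list under a provisional name, with 5 peaks, none at the promoter and none above a score of 16.7. The other 16 cannot be told from genes that the authors' annotation lacks. Against all 69 the share with a promoter peak was 52.2%, and over all 23154 protein-coding genes it was 17.2%. Efna1, Efna3 and Efna4 are neighbours in GRCr8. The highest peak of Efna4, 78.6 over 2389 bp, was centred 7952 bp downstream of its TSS, and whether it covers a neighbour was not examined.

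Other receptors and ligands of the same pathways were counted beside the 38.4% of all named genes. Of 27 such genes 21 were named and 15 had a promoter peak (71.4% of those named), with a median score of 70.3. Dscaml1, a homophilic adhesion receptor, had 384.5, Flrt2, a ligand of Unc5 receptors, 287.1, the adhesion molecule Cntn2 264.9 and the repulsive cue Rgma 165.2. The netrin receptor Dcc had 40 over 1068 bp. Ntng2, L1cam, Flrt1, Ryk, Met and Ptprf had none. Of 44 cytoplasmic effectors 29 were named and 16 had a promoter peak (55.2% of those named), with a median score of 44.15. Dpysl5 (222.4), Rnd1 (221.1), Crmp1 (150) and Pak1 (112.2) led, of which the collapsin response mediators Crmp1 and Dpysl5 and the GTPase Rnd1 relay semaphorin signals. The effectors named by no peak include the GTPase genes Cdc42, Rac1 and Rhoa and the kinase genes Rock2, Limk1, Limk2 and Cdk5. Such genes cannot be told from genes that the authors' annotation lacks.

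Other large gene families that were counted had shares at or above that of the guidance genes. Cadherin and protocadherin genes had a promoter peak at 28 of 38 named genes (73.7%, median score 50.3), and Wnt ligands and Frizzled receptors at 25 of 27 (92.6%, median score 129.1). The difference between families was not tested. Markers of nerve cell types cannot show which cells were present through a repressive mark. Of the Schwann cell markers reported, Sox10 (4.13) had a promoter peak of the smallest width, whereas Ngfr (288.4), Mbp (77.4) and Egr2 (72.6) had larger scores. Pmp22 was named without a promoter peak, and S100b is named by no peak. The markers of fibroblasts and perineurial cells had a promoter peak at 3 of 5 named genes, those of endothelium at 1 of 3, of leukocytes at 0 of 1 and of skeletal muscle at 2 of 3. The neuronal genes Rbfox3, Snap25 and Syt1 had 26, 91.2 and 172.6. The part of each cell type in the guidance gene peaks was not tested.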

How the data were processed

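The submitters' processing notes name CASAVA 1.8.2, Bowtie and HOMER, and per the file headers the combined peak list was annotated with HOMER against rn5. How peaks were called, whether input was subtracted and how replicates were merged was not given in the sources used here. Each peak's score is as deposited by the authors, on a scale they do not state. The authors' table also gives the signed distance from peak to TSS, in bp.

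Genes were taken by name pattern. Promoter peaks were those whose distance was at most 1000 bp plus the width divided by 2. Shares have 95% Wilson intervals, and scores have exact Poisson intervals on steps of 0.20627. No test was made, because the list holds no value per library. The rule for named genes gave full values for up to 3 members per family with the highest promoter score. It also gave them for Sema3a, Sema3f, Sema4f, the Slit genes, Robo1, Robo2, Ephb2, Efnb1, Efnb2, Efna5, Epha4, Ntn1, Unc5b, Nrp1 and Nrp2. Plxna4 was in the rule too, but no peak names it. The closest peak of each unmarked member and the 5 members with most peaks were also given. Results for some marker genes are not reported here. Members and lists were chosen with earlier results of these data known. Gene names and promoters came from RefSeq (GRCr8). The promoter call was tested on simulated data. The simulated peaks beyond the limit all lay far from it, so gaps just over 1000 bp were not tried. Python 3.11.15, pandas 2.3.3 and scipy 1.17.1 were used.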

Additional observations from a re-analysis of the deposited data

How the results depend on the processing

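Counts of guidance genes with a promoter peak moved most with the definition of the promoter. Where the peak had to contain the TSS, 15 genes qualified (8 ligands and 7 receptors), and the median score and width were 106.2 and 2848 bp. Counting the promoter-TSS class alone, 14 qualified (8 ligands and 6 receptors), with medians of 12.15 and 498 bp. The share of all named genes was then 13.8% and 18.4%. A reach of 5000 bp gave 48 of the 52 guidance genes (92.3%), against 61.9% of all named genes, with medians of 54.9 and 1659.5 bp. Scores at or above the median gave 34 genes (79.6 and 2312.5 bp), or 65.4% against 32.7% of all named genes. The top 25% of scores gave 33 (79.8 and 2338 bp), or 63.5% against 28.1%. Peaks joined within 5000 bp gave 37 genes (71.2%), against 36.6% of the 10043 genes that were then named. The medians were 164.19 and 10822 bp, since joined scores are summed. A single TSS per gene left the guidance counts and medians as they were, and the share of all named genes was 38%. Against all protein-coding genes of the rule in the gene table the share was 52.2%. The list holds no value per library, so leaving out a replicate was not possible. No paired analysis was possible because the list has no column per sample.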
